A study of Mus musculus with 9 samples.

Results

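The comparison set mouse embryonic stem cells (ESCs), which stand for the naive pluripotent state of the early inner cell mass, against epiblast stem cells (EpiSCs) given vehicle, which stand for the primed state of the epiblast after implantation. It was made on 3 ESC arrays and 3 vehicle EpiSC arrays of the 9 arrays in the series, chosen by the titles of the samples, and the remaining 3 arrays, of EpiSCs given the Wnt secretion inhibitor IWP2, entered only the estimate of the spread and the choice of 1 probe set per gene. All cells are labelled with the strain C57BL/6 and grew in N2B27, a serum-free medium. ESCs were on gelatine with 1000 U/ml LIF and, in addition, 250 ng/ml Wnt3a. The EpiSC plates were coated with gelatine and FCS (serum), and their medium held 20 ng/ml Activin A besides 12 ng/ml bFGF. Total RNA was hybridised to Affymetrix Mouse Genome 430 2.0 arrays, and the titles number the 3 samples of each group as biological replicates. Cell state, growth factors and coating therefore changed together and cannot be told apart. Of 18193 genes measured, the 17404 on the 19 autosomes are described. The sources used here do not name the lines, and p-values measure the spread between these cultures.

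Naive cells depend on LIF, which acts through the receptor chains Lifr and gp130 and the factor Stat3, and on a circuit that holds Klf, Esrrb, Tfcp2l1 and Nr5a2. Primed cells depend on Activin and FGF signals, have the form of an epithelium, and stand close to the choice between germ layers. Germline genes, whose promoters are silenced by DNA methylation and by Polycomb-type repressors around implantation, are a known point of difference between both states.

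Marker genes were set against the labels first. All 12 naive markers were at least 2-fold higher in ESCs, with a median difference of 6.36 on the log2 scale, and 8 of 12 primed markers were at least 2-fold lower, with a median of -3.78. Of the other primed markers, Nodal (0.40) and Sfrp2 (0.22) were higher in ESCs, although Sfrp2 was not called without ESC replicate 1 (0.17, limma adjusted p = 0.0952), without vehicle replicate 1 (0.17, 0.0957) or with the trend and robust variance (0.0511). Pou5f1, the gene for the pluripotency factor Oct4, read 12.06, 12.13 and 12.17 (log2 signal) on the ESC arrays and 11.26, 11.37 and 11.26 on the vehicle arrays, so it was high in both groups, without overlap. Nanog read 12.72, 12.66 and 12.70 in ESCs and 10.34, 10.08 and 10.27 in vehicle EpiSCs. Arrays of 1 group correlated at 0.997 and arrays of the 2 groups at 0.929 to 0.931 over all probe sets.

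Markers of other cell types also differed. Of 10 definitive endoderm markers 8 were at least 2-fold lower in ESCs, and the summed signal of the list was 9.74 to 9.77 in ESCs and 12.37 to 12.44 in vehicle EpiSCs (log2). The summed signal of 12 primitive endoderm markers was 9.93 to 9.97 against 11.18 to 11.30, with 5 members at least 2-fold lower and 1 higher. For 12 fibroblast and feeder markers it was 8.23 to 8.28 against 9.52 to 9.96, with 5 members at least 2-fold lower. The 9 trophoblast markers summed to 9.74 to 9.76 against 9.56 to 9.83, with 3 members at least 2-fold lower and 1 higher. The 10 neurectoderm markers summed to 11.85 to 11.90 against 11.20 to 11.36, although 3 members were at least 2-fold lower and 1 higher. The higher member, Stmn2 (mean 11.55 against 10.06), made up much of that sum. The 12 markers of mesoderm, heart and blood summed to 8.49 to 8.51 against 8.23 to 8.52, with 1 member at least 2-fold different in each direction. The part of these cell types in the results was not tested. In cultures measured in bulk, fewer cells of a type and less RNA per cell cannot be told apart. The groups also differed on the sex chromosomes, where the Y-linked gene Eif2s3y differed by -7.54 and Xist, the RNA that coats an inactive X chromosome, by 3.93 (ESC minus vehicle). The part of this difference in the autosomal results was not tested.

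A large share of the autosomal genes differed. At an adjusted p under 0.05 in limma, 6614 genes (38%) were higher in ESCs and 4946 (28.4%) were lower, and 5844 were not called. Most differences were small: 1107 genes (6.36%) were called and at least 2-fold higher, and 1693 (9.73%) were called and at least 2-fold lower. These 4 percentages are the background for the counts of the gene groups that follow. The 3 ESC arrays did not overlap with the 3 vehicle arrays in any of the 2800 genes of the 2-fold classes. These genes were selected on the same arrays by call and size, so this absence of overlap is not a result. The median difference of all autosomal genes was 0.11, so the balance between higher and lower calls depends on the scaling. With each array centred on its median, 68.9% of calls were higher in ESCs, against 57.2% as deposited. With cyclic loess, another normalization, the share was 51.8%. Without a change of scaling it was 48.1% among genes above the median signal, and 40.2% in a test against a minimum log2 difference of 1.

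The order of the 2 directions turned with the size of the difference. At least 4-fold, 406 genes were higher and 567 lower, at least 8-fold 216 and 219, at least 16-fold 112 and 86, and at least 64-fold 27 and 13. Among the genes at least 2-fold higher in ESCs, 235 (21.2%) had a vehicle mean beneath 3.72, the lower quartile of all values, where the array no longer follows falling RNA levels. For the genes at least 2-fold lower, 184 (10.9%) had an ESC mean beneath it. Differences of such genes are better read as lower limits of their size.

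**Figure D1:**
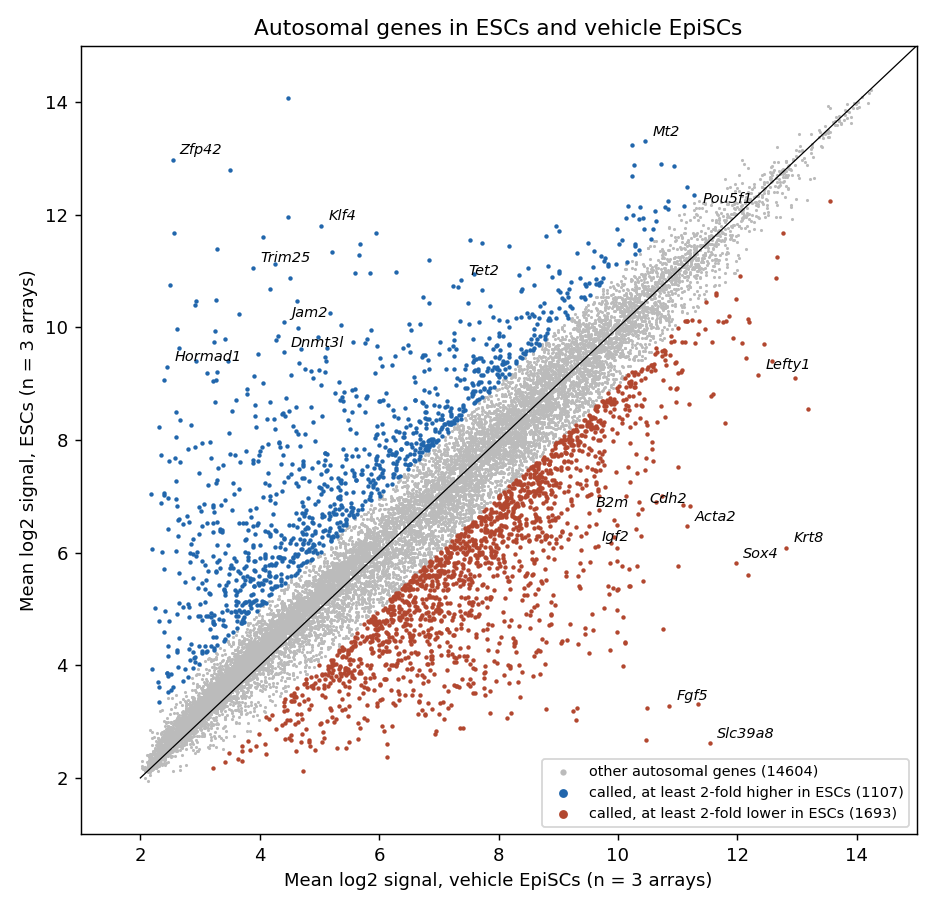
Mean log2 signal of each autosomal gene in vehicle EpiSCs (horizontal) and ESCs (vertical), 3 arrays each, with the line of equal signal. Blue points are the 1107 genes called and at least 2-fold higher in ESCs and red points the 1693 lower; Zfp42 and Slc39a8 lie farthest from the line on either side.

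The largest differences in each direction were those of Zfp42 (10.44), which encodes the naive marker Rex1, and the zinc importer gene Slc39a8 (-8.93). Among the 30 largest genes higher in ESCs were many of pluripotency or the germline. Examples are Dppa5a (9.62), Dppa2 (8.12), Hormad1 (6.84) and Klf4 (6.78). Others were of mixed function. Trim25, a ubiquitin ligase that activates the RNA sensor RIG-I, read 11.02, 11.11 and 11.05 in ESCs and 3.88, 3.81 and 3.99 in vehicle EpiSCs, a difference of 7.17 ± 0.083 (SE; limma adjusted p = 2.44e-12). Pycard, the adaptor of inflammasomes, was higher by 6.67 and Lgals3, the gene for galectin 3, by 6.50. Rpl39l (7.22) and Rps4l (9.28) encode variants of ribosomal proteins. Ephx2, the soluble epoxide hydrolase, was higher by 5.85, and Dpys, an enzyme of pyrimidine breakdown, by 6.08. Absence of overlap between the groups was a condition for a place among the 30 largest in either direction, so it is not a result.

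At the opposite end, Pkdcc, a secreted tyrosine kinase, read 3.71, 2.85 and 3.36 in ESCs and 11.61, 11.21 and 11.20 in vehicle EpiSCs (-8.03 ± 0.195 SE). The insulin-like growth factor binding protein genes Igfbp3 (-5.23) and Igfbp5 (-4.85) were both lower in the probe sets used, although the other probe set of Igfbp5 was called higher (0.61). Also lower were the carbonic anhydrase genes Car4 (-5.70) and Car3 (-4.95). Irx3, a homeobox gene of neural and heart patterning, differed by -5.40, and Satb1, a chromatin organiser first known from thymocytes, by -4.89. Tph1, which makes serotonin from tryptophan outside the neurons of the brain, differed by -5.06. Cthrc1 (-5.61) and Pxdn (-4.79) act in the extracellular matrix, the latter by cross-linking collagen IV.

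Differences were spread over all 19 autosomes. The share of genes at least 2-fold higher ran from 5.39% on chromosome 15 to 9.05% on chromosome 14, and the share at least 2-fold lower from 7.08% on chromosome 7 to 13.1% on chromosome 3. Chromosomes 7 and 14 had more genes higher than lower (114 against 100, and 58 against 53), and on the other autosomes the lower class was the larger.

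Neighbouring genes sometimes differed together. Among measured genes in chromosomal order, 25 runs of at least 3 neighbours were at least 2-fold higher in ESCs and 26 were lower. Beside them stand the background shares of 6.36% higher and 9.73% lower. Runs can also form where neighbours differ independently, more readily in the larger lower class. The number of such runs was not computed. The longest held 5 genes on chromosome 4, between 146973610 and 147642508 in the RefSeq annotation of GRCm38.p6: Rex2, 4933438K21Rik, Zfp991, Zfp982 and Zfp979, which differed by 2.41 to 8.26. Zfp982 read 10.92, 10.68 and 10.69 in ESCs and 2.63, 2.51 and 2.37 in vehicle EpiSCs. Several of these genes encode zinc finger proteins of a repeated family, whose close copies the probes may not separate. A run of 4 on chromosome 6 held Apobec1, Gdf3, Dppa3 and Nanog (2.46 to 5.35). Lower runs of 4 held Antxr2, Prdm8, Fgf5 and Cfap299 on chromosome 5 (-7.58 to -1.16), and Yaf2, Zcrb1, Pphln1 and Prickle1 on chromosome 15 (-3.04 to -1.91). On chromosome 8 Irx3, the long noncoding RNA gene Crnde and Irx5 were lower together (-5.40 to -2.53), as were Irs2 and the collagen IV pair Col4a1 and Col4a2 (-4.39 to -1.67).

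**Figure D2:**
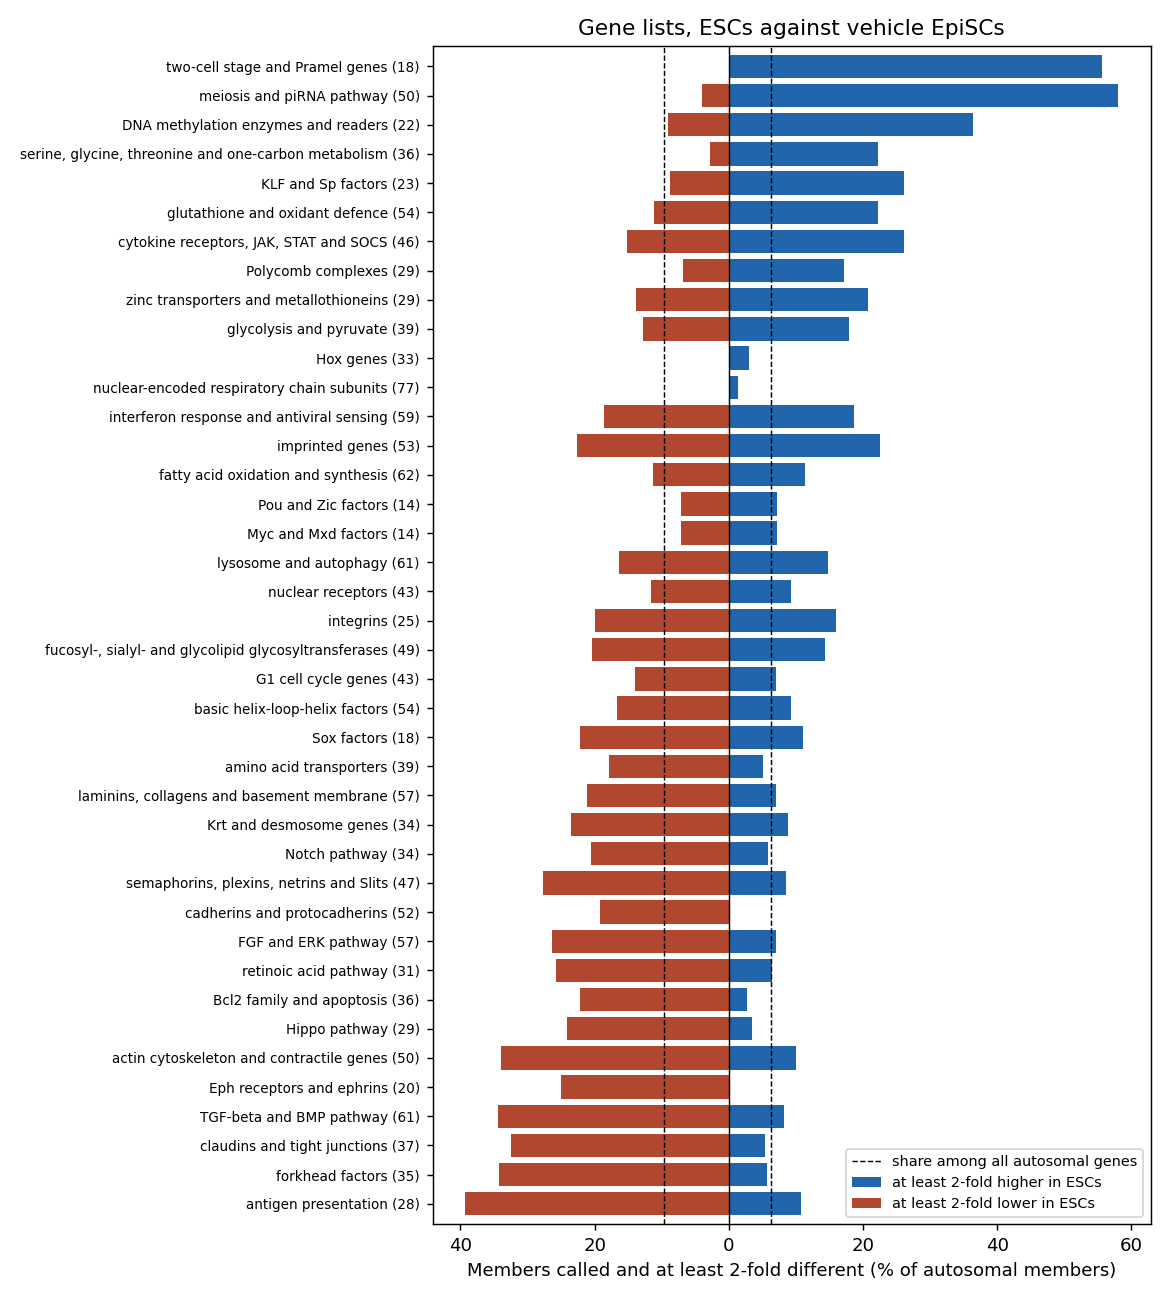
Share of the autosomal members of 40 gene lists that were called and at least 2-fold higher (blue, to the right) or lower (red, to the left) in ESCs, with the number of members in brackets. Dashed lines mark the shares of all 17404 autosomal genes, 6.36% and 9.73%. The meiosis and piRNA list reached 58% higher and the antigen presentation list 39.3% lower. The lists were chosen with earlier results of these data known.

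Genes of meiosis and of the piRNA pathway had the highest share of members at least 2-fold higher in ESCs, of the 40 lists. The piRNA pathway guards the germline against transposons with small RNAs. The lists were chosen with earlier results of these data known, so ranks among them are not independent of these data. Of 50 measured, 41 were higher, 5 lower and 4 not called, and 29 (58%) were at least 2-fold higher against 2 (4%) lower. The median difference was 1.40, beside 0.11 for all autosomal genes. Only 33 of the 50 reached the median signal of all values, 5.24, in 1 of the groups, and with the filter on low signal the 29 members at least 2-fold higher came to 17.

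Axis proteins of the meiotic chromosome were among the largest. Hormad1, which marks unsynapsed axes, read 9.35, 9.30 and 9.25 in ESCs and 2.54, 2.46 and 2.37 in vehicle EpiSCs, a difference of 6.84 ± 0.060 (SE; limma adjusted p = 5.88e-13). Syce1, of the central element of the synaptonemal complex, read 9.42, 9.39 and 9.43 against 3.47, 3.39 and 3.55 (5.94). That every ESC array lay above every vehicle array was a condition for naming both genes, so it is not a result. Ccnb1ip1, a ubiquitin ligase of crossover formation, was higher by 6.36, and Tex19.1, which protects germ cells from retrotransposons, by 6.51. Values outside the 4 largest are given for genes whose promoters are shown: the axis gene Sycp3 (4.92), the meiotic cohesin gene Stag3 (5.11), the piRNA factor Mael (4.86) and Slc25a31 (4.66), a testis form of the mitochondrial ADP/ATP carrier.

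The piRNA members did not all go one way. Tdrkh, a tudor protein that helps trim piRNAs, read 4.49, 4.92 and 4.83 in ESCs and 8.87, 8.79 and 8.98 in vehicle EpiSCs (-4.14 ± 0.103 SE). Tdrd7, a tudor protein of germ granules, differed by -2.75, Tdrd5 by -0.72, and the recombination factor Psmc3ip by -0.70. These 4 are the opposite of the group's main direction.

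**Figure D3:**
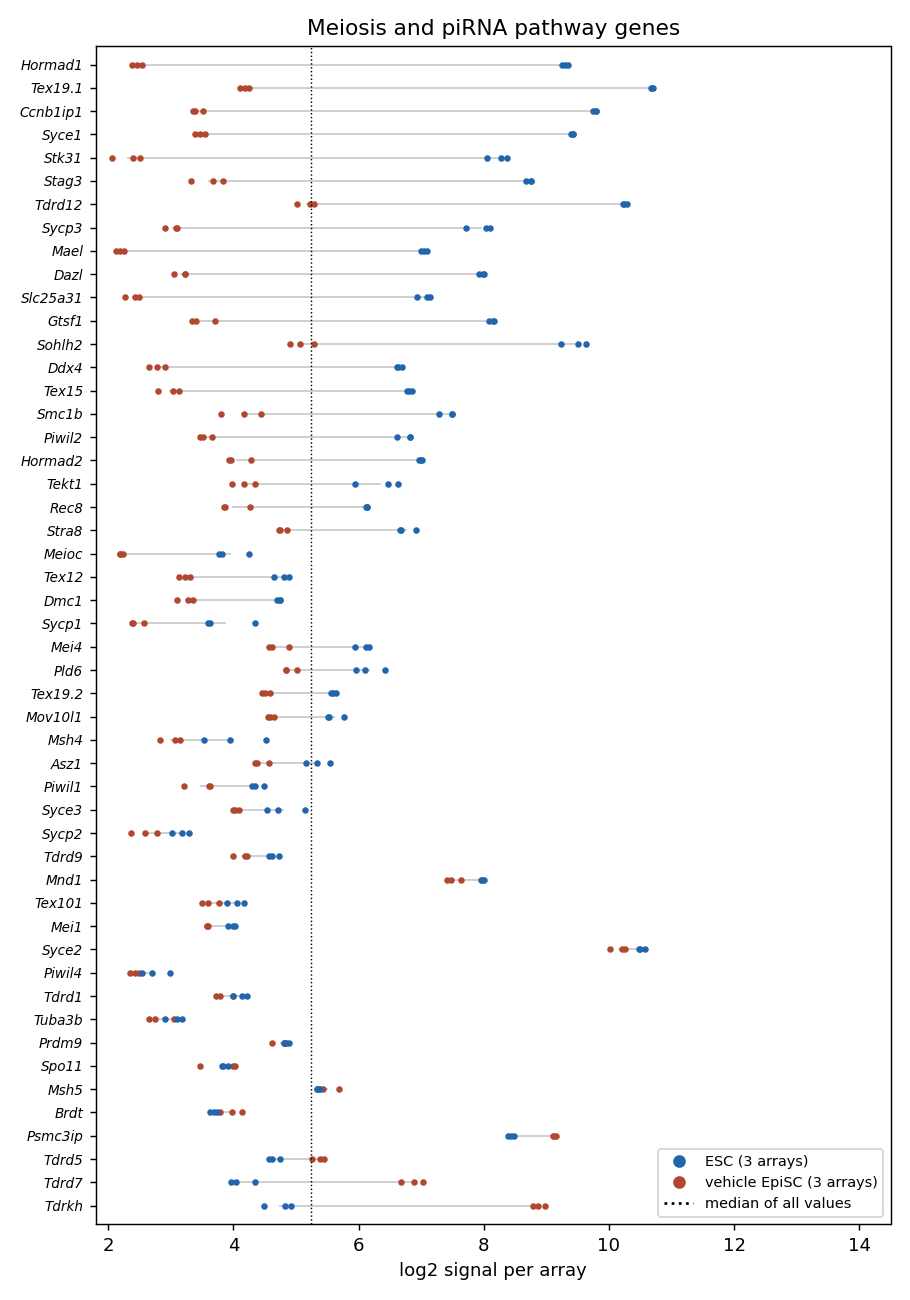
Log2 signal of the 50 measured genes of meiosis and the piRNA pathway on each ESC array (blue) and each vehicle EpiSC array (red), in order of the difference, with grey lines joining the group means. The dotted line is the median of all values, 5.24; Tdrkh and Tdrd7 lie at the low end and Hormad1 at the high end.

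Promoter sequences were set beside these values, because repression of germline genes is known to use DNA methylation at CpG-rich promoters and a Polycomb complex that binds CACGTG through Mga and Max and TCCCGC through E2f6. The windows run from 250 bases before to 50 bases into each gene, from RefSeq on GRCm38.p6, and 5 germline genes that hold both motifs are shown with each match on either strand in capitals (TCCCGC appears as GCGGGA on the other strand; CACGTG reads the same on both). They are Hormad1 at chr3:95559427-95559726 (plus strand), Mael at chr1:166238695-166238994 (minus), Sycp3 at chr10:88459337-88459636 (plus), Stag3 at chr5:138280259-138280558 (plus) and Slc25a31 at chr3:40708621-40708920 (plus).
Hormad1: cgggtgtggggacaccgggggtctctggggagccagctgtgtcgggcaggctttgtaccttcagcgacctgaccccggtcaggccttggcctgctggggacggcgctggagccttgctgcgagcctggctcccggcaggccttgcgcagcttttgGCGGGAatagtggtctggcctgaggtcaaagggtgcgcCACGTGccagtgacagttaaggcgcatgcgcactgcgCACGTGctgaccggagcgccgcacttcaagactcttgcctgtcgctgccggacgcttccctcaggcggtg
Mael: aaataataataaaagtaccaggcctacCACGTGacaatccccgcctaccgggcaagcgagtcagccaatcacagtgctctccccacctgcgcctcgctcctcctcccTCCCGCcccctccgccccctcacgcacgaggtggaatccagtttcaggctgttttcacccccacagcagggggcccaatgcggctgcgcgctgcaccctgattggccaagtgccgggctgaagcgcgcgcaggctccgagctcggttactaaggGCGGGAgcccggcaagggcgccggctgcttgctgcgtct
Sycp3: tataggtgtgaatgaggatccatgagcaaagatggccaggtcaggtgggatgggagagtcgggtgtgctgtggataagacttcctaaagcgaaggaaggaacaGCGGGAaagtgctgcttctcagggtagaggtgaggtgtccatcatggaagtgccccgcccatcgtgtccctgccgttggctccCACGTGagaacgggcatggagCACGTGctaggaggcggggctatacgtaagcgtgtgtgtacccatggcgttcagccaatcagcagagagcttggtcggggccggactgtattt
Stag3: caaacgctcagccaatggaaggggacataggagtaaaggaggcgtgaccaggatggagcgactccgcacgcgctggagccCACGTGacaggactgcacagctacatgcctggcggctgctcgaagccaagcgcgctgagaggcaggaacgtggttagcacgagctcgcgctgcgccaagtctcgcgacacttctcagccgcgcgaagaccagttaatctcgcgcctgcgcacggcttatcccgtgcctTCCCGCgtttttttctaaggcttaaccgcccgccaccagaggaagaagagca
Slc25a31: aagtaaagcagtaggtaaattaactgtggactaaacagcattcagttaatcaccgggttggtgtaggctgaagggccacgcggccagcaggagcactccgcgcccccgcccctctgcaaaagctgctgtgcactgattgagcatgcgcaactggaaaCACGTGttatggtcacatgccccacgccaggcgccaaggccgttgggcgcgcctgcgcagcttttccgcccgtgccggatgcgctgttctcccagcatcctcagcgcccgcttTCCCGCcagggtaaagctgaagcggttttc
These windows held 15 to 30 CpG pairs. No match overlapped another.

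CACGTG was found in 19 of the 60 windows of the meiosis and piRNA list (31.7%), which belong to 47 of its 50 genes, against 8.7% of the 17451 windows of all autosomal genes measured. TCCCGC was in 41.7% against 29.2%, and both were in 16.7% against 3.05%. Windows with at least 10 CpG pairs made up 83.3% of the list and 65.2% of all. Counted by gene, 11 of 27 members at least 2-fold higher in ESCs held CACGTG (40.7%), 5 of the 20 other members did (25%), and 10.2% of all autosomal genes measured did. Of the other motifs searched on both strands, GGGTGTGG, a Klf-type box, was in 10% of the list's windows against 3.83%. TCAAGGTCA, an Esrrb-type site, was in 1 window (1.67% against 0.344%), and TTCCNGGAA, a STAT-type site, and the octamer ATGCAAAT were in none, against 1.22% and 1.38%. Among all genes at least 8-fold higher in ESCs 14.8% of windows held CACGTG, and among those at least 8-fold lower 4.52%. Windows of 1 gene can overlap, and a match is a string of letters, not a bound site. The arrays gave small differences for the genes of both binding partners: Max differed by 0.67 and Mga by 0.59, the latter with another probe set called the opposite way.

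The two-cell stage and Pramel genes, marked by brief expression at genome activation or in naive cells, had the next highest share at least 2-fold higher. Of 18 measured, 15 were higher, 0 lower and 3 not called, and 10 (55.6%) were at least 2-fold higher and 0 lower, with a median of 1.08, and the count was 6 with the filter on low signal. Pramel6, which promotes loss of DNA methylation in naive cells, read 7.95, 7.79 and 7.78 in ESCs and 2.77, 2.88 and 2.74 in vehicle EpiSCs (5.04 ± 0.083 SE). Pramel7, a relative with a like role, was higher by 3.60, Pramel13 by 3.80 and the deubiquitinase gene Usp17la by 3.98. These are repeated gene families, and close copies may share probes. Their 14 windows in the RefSeq table had a median of 2 CpG pairs, against 16 for all autosomal genes measured, and 0 held CACGTG. That of Pramel6, at chr2:87506315-87506614 (plus strand), is shown for contrast with the germline windows, and that of Zfp42, at chr8:43306960-43307259 (minus strand), as the gene with the largest difference, with the octamer (as ATTTGCAT) and the Klf-type box (as CCACACCC) in capitals.
Pramel6: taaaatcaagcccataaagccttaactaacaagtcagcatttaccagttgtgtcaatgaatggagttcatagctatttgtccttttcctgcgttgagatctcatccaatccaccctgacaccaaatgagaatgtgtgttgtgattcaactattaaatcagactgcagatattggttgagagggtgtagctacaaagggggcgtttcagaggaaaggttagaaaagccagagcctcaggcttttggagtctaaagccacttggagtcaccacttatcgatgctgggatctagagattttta
Zfp42: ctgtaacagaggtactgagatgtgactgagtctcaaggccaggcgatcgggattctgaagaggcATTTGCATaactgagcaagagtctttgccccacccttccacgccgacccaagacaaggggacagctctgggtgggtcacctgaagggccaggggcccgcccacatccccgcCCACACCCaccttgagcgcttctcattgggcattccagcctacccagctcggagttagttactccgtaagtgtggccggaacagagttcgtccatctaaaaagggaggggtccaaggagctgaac
The Pramel6 window held 3 CpG pairs and the Zfp42 window 11.

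Of 22 enzymes and readers of DNA methylation, 8 (36.4%) were at least 2-fold higher in ESCs and 2 (9.09%) lower (1 with the filter on low signal), with a median of 0.46. Dnmt3l, the inactive partner that stimulates the de novo methyltransferases, read 9.61, 9.63 and 9.45 against 4.42, 4.50 and 4.28 (5.16 ± 0.096 SE). Tet2, a dioxygenase that oxidises methylcytosine, read 10.87, 10.85 and 10.79 against 7.39, 7.31 and 7.40 (3.47). Dppa3, which shields DNA from maintenance methylation, was higher by 4.71. Dnmt3b, the de novo enzyme of the epiblast, read 11.22, 11.23 and 11.31 in ESCs and 12.70, 12.82 and 12.50 in vehicle EpiSCs (-1.42 ± 0.081 SE). Dnmt3b was thus well above the median signal in both groups. For completeness of the enzyme classes, and outside the rule for named genes, Tet1 was higher by 1.75, Dnmt3a differed by -0.60, the maintenance enzyme Dnmt1 by 0.40 and its cofactor Uhrf1 by 0.52, and Tet3 was not called (0.01, adjusted p = 0.929). The methyl-CpG binding protein gene Zbtb4 differed by -2.10.

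Of 29 Polycomb genes, which keep developmental genes repressed, 5 (17.2%) were at least 2-fold higher and 2 (6.9%) lower, with a median of 0.15 beside 0.11 for all genes. Averaging the probe sets of each gene, the higher count was 3. Epop, an accessory protein of the repressive complex PRC2, read 8.57, 8.50 and 8.48 against 4.61, 4.42 and 4.45 (4.03 ± 0.191 SE). Jarid2 (1.53) and Mtf2 (1.36), which recruit PRC2, were higher as well. Eed, a core subunit, was higher by 1.27 in the probe set used, and another of its probe sets was called the opposite way. Yaf2, a subunit of variant PRC1 complexes, differed by -1.91.

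Transcription factor families differed in how they divided. In the KLF and Sp family 6 of 23 (26.1%) were at least 2-fold higher in ESCs and 2 (8.7%) lower. Klf4 read 11.83, 11.79 and 11.81 in ESCs and 4.96, 4.95 and 5.17 in vehicle EpiSCs (6.78), and Klf2 differed by 6.13 and Klf5 by 3.77. These 3 sustain the naive circuit. Klf15, better known for metabolic control in liver and muscle, was higher by 2.55, and Klf7 differed by -1.07. The count of 2 lower members was 1 with the filter on low signal, with median centring and with repeated quantile normalization, and 0 with the offset of 32.

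Sox factors gave 8 higher, 5 lower and 5 not called of 18. The SoxC genes Sox4 (-6.17) and Sox11 (-4.30), which act in progenitors of many tissues, were lower in ESCs, as were the endoderm factor Sox17 (-3.15) and Sox9 (-2.40). Sox4 read 5.80, 5.86 and 5.76 against 12.00, 11.94 and 11.99. Sox2, the partner of Oct4, was higher by 1.98 and Sox15, which resembles it, by 2.13. By at least 2-fold, 2 of 18 were higher (11.1%) and 4 lower (22.2%).

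Forkhead genes were mostly of the lower class where they differed: 12 of 35 (34.3%) were at least 2-fold lower and 2 (5.71%) higher, and the median difference was 0.01. After adding 32 to the linear signals, which shrinks differences between weak signals, the lower count was 7, and with the mean of probe sets the higher count was 1. Foxa2, a pioneer factor of endoderm and midline, read 4.19, 4.39 and 4.61 in ESCs and 10.15, 10.12 and 10.07 in vehicle EpiSCs (-5.72 ± 0.107 SE). Its relative Foxa1 differed by -4.62 and Foxd4 by -3.08. Foxd3, a factor of the early epiblast and the neural crest, was higher by 1.49. The definitive endoderm list, which shares Foxa1 and Foxa2, was lower too (summed signal above), and its part was not tested.

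Among 54 basic helix-loop-helix factors 5 (9.26%) were at least 2-fold higher and 9 (16.7%) lower, which became 3 and 5 with the offset of 32. Mitf, the pigment cell and lysosome factor, read 8.58, 8.36 and 8.48 against 4.44, 4.02 and 4.68 (4.09 ± 0.194 SE). Its relative Tfeb, a regulator of lysosomal genes, was higher by 1.26, and Tcf15, linked to epiblast priming, by 2.77. Olig1, of the oligodendrocyte lineage, differed by -6.08 and its neighbour Olig2 by -2.77, and Id1, a target of BMP signals, by -2.19. Nuclear receptors gave 4 of 43 higher (9.3%) and 5 lower (11.6%) by at least 2-fold, near the background in both directions. These counts were 2 and 2 with the offset, and the mean of probe sets gave 2 higher and the filter 3 lower. Nr5a2 (6.58) and Esrrb (3.27) serve naive pluripotency. The Esrrb value is from an _x_at probe set, and its 3 probe sets, all called higher, ranged from 3.27 to 7.12. The 4 of Nr5a2, also all called higher, ranged from 0.79 to 6.58. Rarb (-2.80), itself a target of retinoic acid, and Pgr (-2.60), the progesterone receptor gene, were lower.

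Most Hox genes gave weak signals. Only 7 of 33 reached the median signal in a group, and 1 (3.03%), Hoxc13 (1.03), was at least 2-fold higher. Without ESC replicate 3, with cyclic loess, with the filter on low signal or with the offset of 32 that count was 0. Pou and Zic genes gave 1 of 14 in each direction (7.14%). The higher count was 0 with the filter or the offset, and the lower count 2 without vehicle replicate 3 or with the mean of probe sets. The lower gene was Pou3f1 (-5.22), a factor of the primed epiblast and neural plate, and Zic5 (-0.95) and Zic2 (-0.93) were lower by less than 2-fold. The Myc and Mxd family also gave 1 of 14 in each direction. Both counts were 0 with the mean of probe sets, and the lower count was 2 without ESC replicate 2, without vehicle replicate 1 or with cyclic loess. Mycn differed by 1.23 and Mycl by -1.50. Myc itself read 8.47, 8.47 and 8.37 in ESCs and 8.47, 8.63 and 8.29 in vehicle EpiSCs, values that overlap (-0.02 ± 0.110 SE, adjusted p = 0.859).

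**Figure D4:**
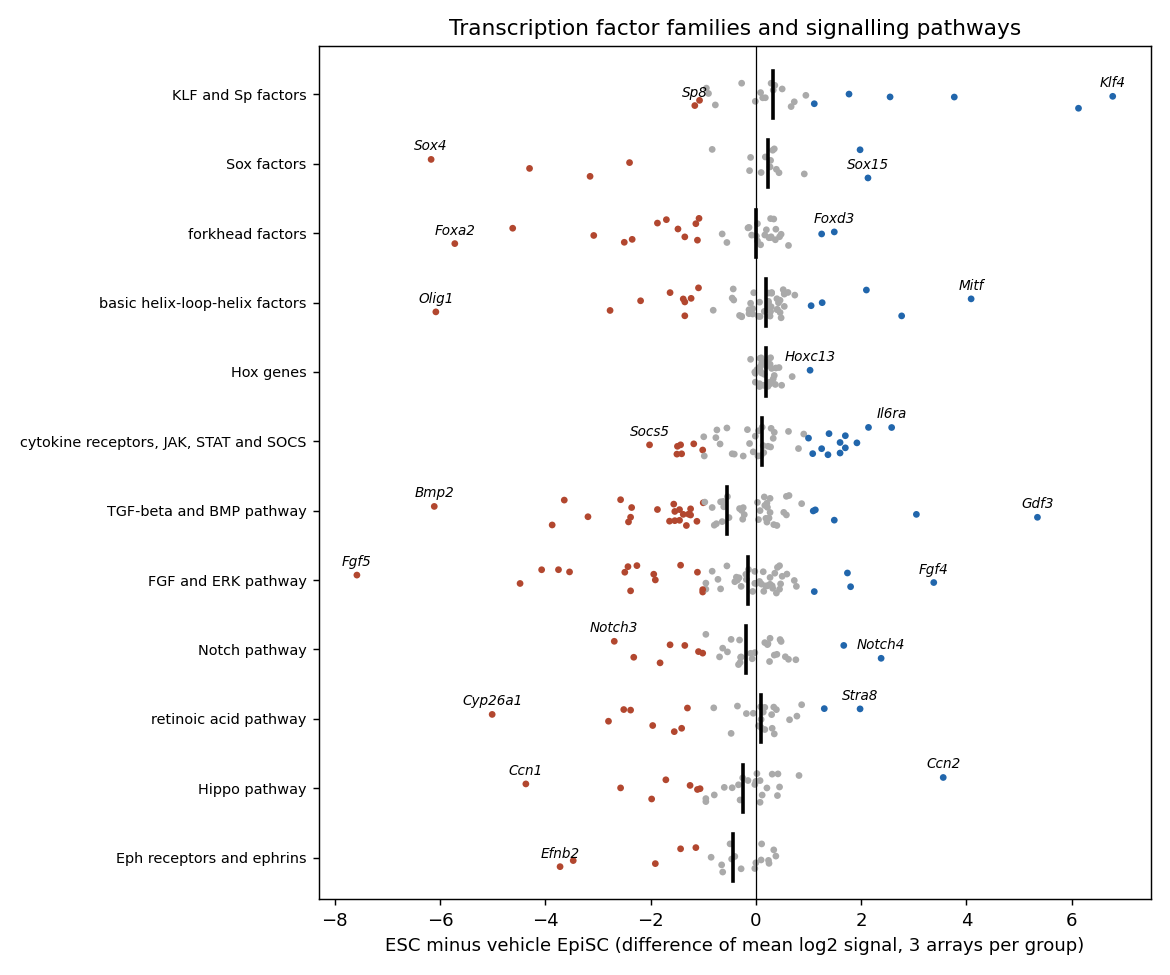
Difference of mean log2 signal (ESC minus vehicle EpiSC, 3 arrays each) of every autosomal member of 12 gene lists. Points called and at least 2-fold different are blue (higher) or red (lower), black bars are medians, and the outermost called gene of each side is named; the Hox genes lie within a narrow band and the TGF-beta and BMP list reaches from Bmp2 to Gdf3.

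Of 46 cytokine receptor, Janus kinase, STAT and SOCS genes 19 were higher and 17 lower, with a median of 0.11, equal to that of all genes. At least 2-fold, 12 (26.1%) were higher and 7 (15.2%) lower, and the lower count was 1 with the offset of 32 and 3 with the mean of probe sets. Lifr, the LIF receptor, read 9.49, 9.51 and 9.47 against 7.64, 7.39 and 7.69 (1.92 ± 0.076 SE). Il6st, the gene for the shared chain gp130, was higher by 2.14, Il6ra by 2.58 and Stat3 by 1.70. That these 4 lay higher on all 3 ESC arrays was a condition for naming them. Socs5, a suppressor of cytokine and EGF receptor signals, differed by -2.02, and Ifngr2, of the interferon gamma receptor, by -1.50.

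Of 61 genes of the TGF-beta and BMP pathway 37 were lower and 17 higher, and 21 (34.4%) were at least 2-fold lower against 5 (8.2%) higher, with a median of -0.54. Ligands were found on both sides. Gdf3, a Nodal-related ligand, read between 9.96 and 10.01 in ESCs and 4.55, 4.72 and 4.64 in vehicle EpiSCs (5.35), and Bmp4 was higher by 3.05, whereas Bmp2 read 3.84, 4.04 and 4.07 against 10.13, 10.19 and 9.96 (-6.11 ± 0.095 SE). The ligand genes Bmp2 and Bmp4 thus differed in opposite directions. Tgfb2 differed by -3.64. The antagonists Fst (-3.87), which binds Activin, and Lefty1 (-3.19), a feedback inhibitor of Nodal, were lower, and the inhibitory Smad7 was higher by 1.13.

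FGF and ERK pathway genes gave 15 of 57 (26.3%) at least 2-fold lower and 4 (7.02%) higher, with a median of -0.14. Fgf5, the ligand of the primed epiblast, read 3.09, 3.47 and 3.27 against 10.84, 11.05 and 10.70 (-7.58), and Fgf8, of the primitive streak, differed by -4.07. Fgf4, the ligand of the inner cell mass, read 10.73, 10.71 and 10.68 against 7.30, 7.38 and 7.29 (3.38). Response genes were also divided: the immediate early gene Egr1 differed by -4.48, while Etv5 (1.74) and Etv4 (1.11), ETS factors induced by FGF, were higher in ESCs.

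Notch genes gave 7 of 34 (20.6%; 4 with the offset) lower and 2 (5.88%) higher by at least 2-fold. Notch3 read 6.99, 7.05 and 6.96 against 9.78, 9.51 and 9.79 (-2.69), whereas the receptor gene Notch4 was higher by 2.38 and Rbpj, the DNA-binding partner of all Notch receptors, by 1.67. Notch2 differed by -2.32 in the probe set used, with another probe set called the opposite way. In the retinoic acid pathway 8 of 31 (25.8%) were at least 2-fold lower and 2 (6.45%; 1 with the offset) higher. Cyp26a1, which degrades retinoic acid, differed by -5.01, the carrier gene Rbp4 by -2.51 and Rdh10, which oxidises retinol, by -2.38. Stra8, named for its response to retinoic acid and required to enter meiosis, was higher by 1.98.

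Hippo pathway genes gave 7 of 29 (24.1%) at least 2-fold lower and 1 (3.45%) higher, against 4 and 2 with the mean of probe sets. The matricellular genes Ccn1 and Ccn2, both widely used as targets of Yap and Tead, went opposite ways. Ccn2 read 8.79, 8.84 and 8.85 in ESCs and 5.10, 5.42 and 5.26 in vehicle EpiSCs (3.56 ± 0.092 SE), and Ccn1 read 6.75, 6.86 and 6.90 against 11.34, 10.93 and 11.34 (-4.37 ± 0.108 SE). The factor gene Tead2 differed by -1.71 and Tead4, of the trophectoderm, by 0.82. Ptpn14, a phosphatase that retains Yap in the cytoplasm, differed by -1.98.

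Genes of epithelial structure were grouped by type of junction and filament. Among 34 keratin and desmosome genes 8 (23.5%) were at least 2-fold lower and 3 (8.82%) higher, and the simple epithelial pair led: Krt8 read 6.15, 6.14 and 5.98 against 12.84, 12.70 and 12.92 (-6.73), and its partner Krt18 differed by -6.57 and Krt19 by -4.62. Desmosome genes were divided, with the cadherin gene Dsc2 lower (-3.53) and Dsg2 (1.29) and the plakoglobin gene Jup (1.37) higher. The list holds only keratins and desmosome genes, so its differences apart from the keratins could only be of desmosome genes.

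Of 37 claudin and tight junction genes 12 (32.4%) were at least 2-fold lower and 2 (5.41%) higher (1 with the filter on low signal), with a median of -0.40. Cldn6, an early epithelial claudin, read 5.09, 5.46 and 5.68 against 9.23, 9.49 and 9.33 (-3.94), Cldn7 differed by -3.28 and Marveld2, the gene for tricellulin, by -3.90. Jam2, a junctional adhesion molecule, was the main exception: it read 10.05, 10.11 and 10.12 in ESCs and 4.29, 4.61 and 4.32 in vehicle EpiSCs (5.69 ± 0.085 SE). Cldn3 (0.76) and Cldn4 (0.59) were higher by less than 2-fold.

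Actin and contractile genes gave 33 lower, 8 higher and 9 not called of 50, and 17 (34%) at least 2-fold lower against 5 (10%) higher (3 with the offset of 32), with a median of -0.44. Tagln, the actin-binding protein transgelin, read 5.59, 5.23 and 5.41 against 9.81, 9.57 and 10.11 (-4.42 ± 0.130 SE). Acta2, smooth muscle actin, differed by -4.69 in the probe set used, an _s_at set, and by -0.07 without such sets (limma adjusted p = 0.569). The regulatory light chain gene Myl9 (-3.92) and the tropomyosin gene Tpm2 (-3.91), which with transgelin belong to the contractile set of smooth muscle, were lower as well. Mylpf, a light chain of fast skeletal muscle, read 10.98, 10.97 and 10.97 in ESCs and 5.49, 5.54 and 5.75 in vehicle EpiSCs (5.38), so the largest member of the higher side is also a myosin light chain gene. The fibroblast and feeder list was lower in ESCs too, led by the collagen genes Col1a2 (-3.24) and Col3a1 (-2.81), and its part was not tested.

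**Figure D5:**
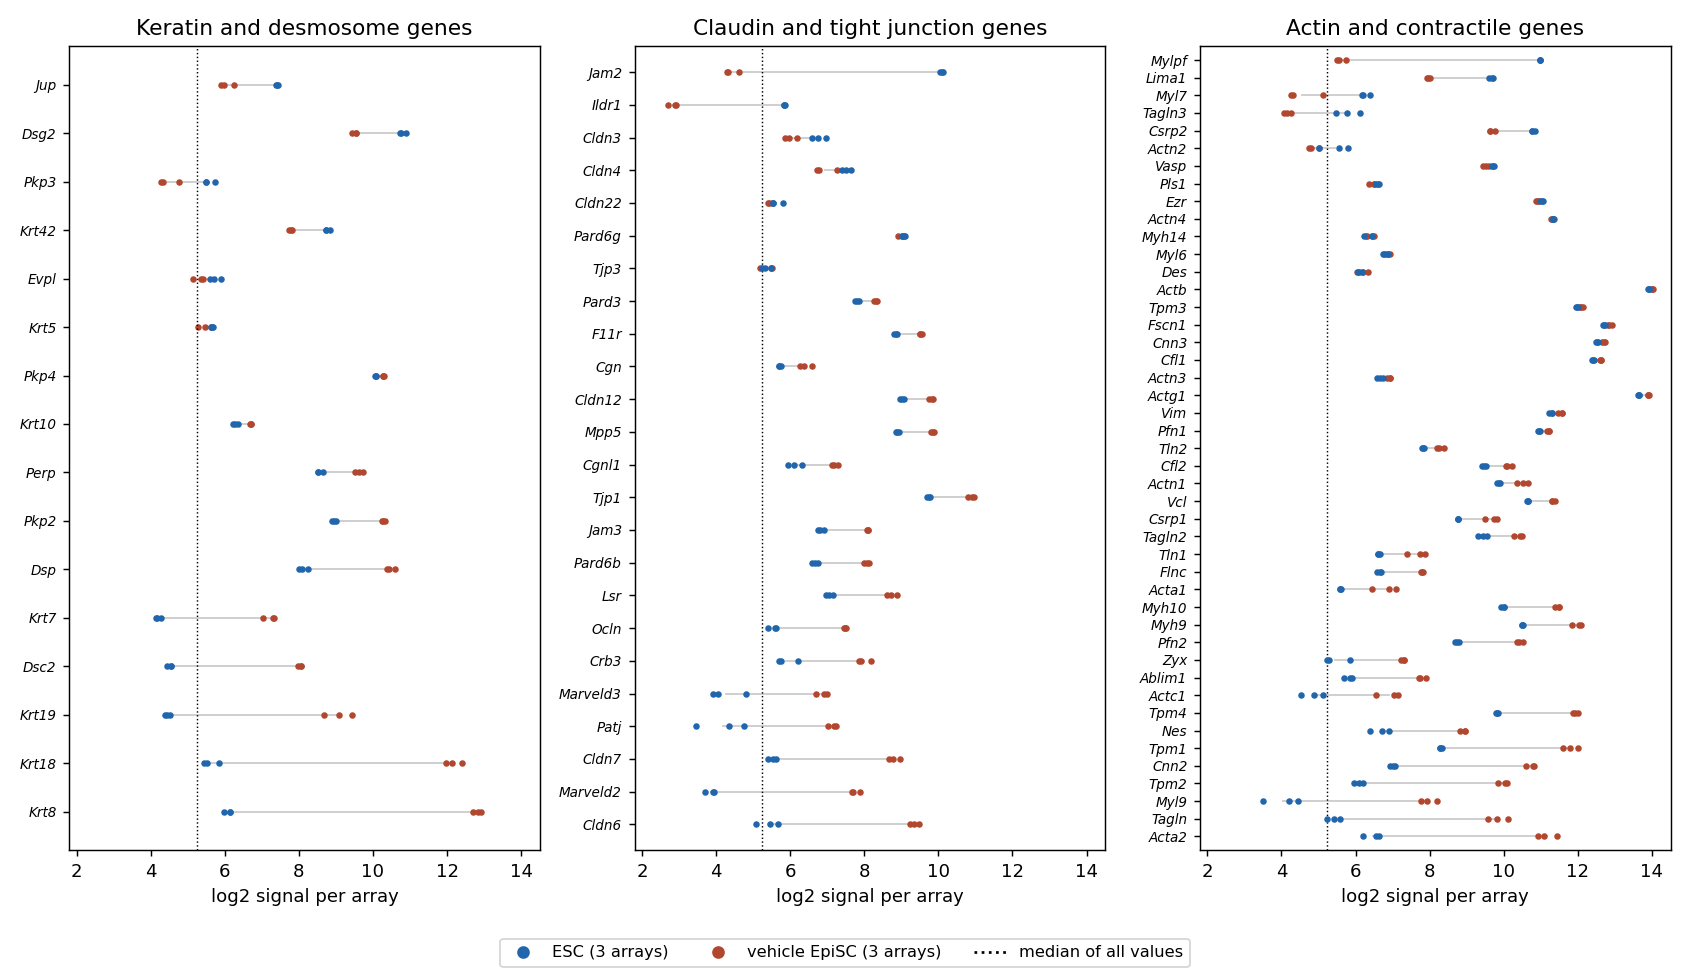
Log2 signal on each ESC array (blue) and each vehicle EpiSC array (red) of keratin and desmosome, claudin and tight junction, and actin and contractile genes whose higher group mean reached 5.24, the median of all values (dotted line). Genes are in order of the difference; Jup, Jam2 and Mylpf lie at the top and Krt8, Cldn6 and Acta2 at the bottom.

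Cell surface and matrix genes followed. Among 52 cadherins and protocadherins 10 were at least 2-fold lower and 0 higher, and the lower count was 3 with the filter on low signal and 6 with the offset. Cdh2, N-cadherin, differed by -3.62 and Cdh10 by -3.64. Cdh1, E-cadherin, named here outside the rule for its role in both states, read 11.20, 11.14 and 11.21 in ESCs and 12.08, 11.95 and 11.87 in vehicle EpiSCs, lower by less than 2-fold (-0.78 ± 0.063 SE). Integrins gave 4 of 25 higher (16%) and 5 lower (20%) by at least 2-fold. The higher count was 2 with the offset of 32, and the lower count was 2 with the mean of probe sets and 3 with the filter, the offset or median centring. Itgb8, which activates latent TGF-beta, differed by -4.51, and Itga9 (2.12) and the leukocyte integrin gene Itgal (2.72) were higher.

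Basement membrane genes moved apart. Col4a1 read 4.16, 4.44 and 4.11 against 8.50, 8.52 and 8.85 (-4.39) and Col4a2 differed by -3.16, whereas Nid1 (2.73) and Nid2 (10.69 against 9.18), which link collagen IV to laminin, were higher in ESCs, as was the laminin chain gene Lama1 (1.60). Of the 57 genes of the list 12 (21.1%) were at least 2-fold lower and 4 (7.02%) higher, the latter 2 with the filter or the offset. Col4a1 and Lama1 are also in the primitive endoderm list, where they differ in sign.

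Of 20 Eph receptors and ephrins, which guide cells and axons by contact, 12 were lower and 2 higher, and 5 (25%) were at least 2-fold lower and 0 higher, with a median of -0.43. The count of 5 came to 3 with the offset of 32. The ephrin gene Efna5 differed by -3.47, with its other probe set at 0.07 and not called. Efnb2 differed by -3.72 with another probe set called the opposite way. Of 47 semaphorins, plexins, netrins and Slits 18 were lower and 16 higher, with a median of -0.02. At least 2-fold, 13 (27.7%) were lower and 4 (8.51%) higher, among them Slit2 (-4.65), Sema6d (-4.19), Sema3e (-3.74) and Sema3c (-3.66) against Sema4b (2.14), Nrp2 (1.53) and Ntn1 (1.18). Glycosyltransferases gave 10 of 49 lower (20.4%) and 7 higher (14.3%). St6gal1, which caps N-glycans with sialic acid, differed by -2.92, with its other probe set at -0.13 and not called. St8sia1, which makes the ganglioside GD3, was higher by 1.80.

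Metabolic lists varied in how far they lay from the background shares, and the respiratory chain list lay beneath both. The 77 nuclear-encoded subunits of the respiratory chain and ATP synthase gave 27 higher, 24 lower and 26 not called, with 1 (1.3%) at least 2-fold higher, 0 lower and a median of 0.05. That gene was Atp5g1 (1.02), for a subunit of the membrane ring of ATP synthase, whose other probe set gave -0.02 and was not called. The count was 0 without vehicle replicate 1, with the mean of probe sets or with repeated quantile normalization, and 2 without _x_at and _s_at probe sets. Glycolysis and pyruvate genes gave 7 of 39 higher (17.9%; 4 with the filter) and 5 lower (12.8%; 3 with median centring or the mean of probe sets). Pfkp, the platelet form of phosphofructokinase, read 10.93, 10.96 and 10.97 against 7.64, 7.40 and 7.74 (3.36). The gluconeogenic genes Fbp1 (2.26) and Fbp2 (1.94), which act in the reverse step, were higher too. Slc16a3, a lactate exporter, differed by -2.29 and Pfkfb3, which makes the activator of phosphofructokinase, by -2.02.

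Serine, glycine and one-carbon genes gave 8 of 36 higher (22.2%) and 1 lower (2.78%), and 2 were higher with the offset of 32 and 5 with the filter. The lower gene, Mthfd2l, a mitochondrial folate enzyme, read 5.79, 5.55 and 5.64 in ESCs and 9.14, 9.29 and 8.97 in vehicle EpiSCs (-3.47), and its relative Mthfd2 differed by -0.95. The neighbours Bhmt (1.88) and Dmgdh (1.67), of betaine and dimethylglycine breakdown, were higher. Glutathione and oxidant defence genes gave 12 of 54 higher (22.2%) and 6 lower (11.1%). Gsta3, a glutathione transferase, read 8.78, 8.59 and 8.68 against 3.20, 3.31 and 3.25 (5.43 ± 0.080 SE), and Gpx7 (3.76) and Nqo1 (2.27) were higher, while Gpx8 (-2.86) and Gstm5 (-2.73) were lower. Both glutathione peroxidase genes of the endoplasmic reticulum, Gpx7 and Gpx8, thus lay on opposite sides.

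In fatty acid metabolism 7 of 62 were at least 2-fold higher (4 with the offset) and 7 lower (11.3% each). The largest higher members, Cpt1a and Slc25a20, act in bringing fatty acids into mitochondria. Cpt1a read 8.90 ± 0.104 against 5.60 ± 0.131 (mean ± SD, n = 3), a difference of 3.30 ± 0.098 (SE). Slc25a20, the acylcarnitine carrier, differed by 1.61. Other genes of this step are not given. Of the fatty acid binding proteins Fabp3 (1.46) was higher and Fabp7 (-4.12) and Fabp5 (-2.70) lower. Amino acid transporters gave 7 of 39 lower (17.9%) and 2 higher (5.13%), which became 4 and 1 with the filter and with the offset. Slc38a4, an imprinted transporter of the placenta and liver, differed by 4.86. The glutamine transporter gene Slc1a5 differed by -2.19, with its other probe set at 0.17 and not called.

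Zinc genes formed a contrast. Slc39a8, an importer of zinc and manganese, read 2.77, 2.44 and 2.63 in ESCs and 11.61, 11.46 and 11.55 in vehicle EpiSCs, while the metal-binding metallothioneins Mt2 (13.37, 13.27 and 13.28 against 10.33, 10.64 and 10.41) and Mt1 (2.62) and the zinc exporter genes Slc30a1 (1.24) and Slc30a2 (2.56) were higher in ESCs. Slc30a4, an exporter into vesicles, differed by -2.06. Of 29 members 6 (20.7%) were at least 2-fold higher and 4 (13.8%) lower.

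Cell cycle and cell death genes differed in a few members. Of 43 G1 genes 3 (6.98%) were at least 2-fold higher and 6 (14%) lower. The D cyclins were divided: Ccnd3 read 10.15, 10.18 and 10.24 against 8.46, 8.40 and 8.29 (1.81), and Ccnd2 read 7.99, 7.97 and 8.06 against 9.66, 9.60 and 9.75 (-1.67). Inhibitors were divided too, with Cdkn1c (p57) higher (2.70) and Cdkn1b (p27) lower (-2.26), and Cdk6 differed by -1.89. In the Bcl2 family and apoptosis list 8 of 36 (22.2%) were at least 2-fold lower and 1 (2.78%; 0 with the offset or the mean of probe sets) higher, with a median of -0.27. Lower genes included the survival gene Bcl2 (-3.04), the death-promoting BH3 gene Bcl2l11 (-2.49), which encodes Bim, and the executioner caspase gene Casp6 (-1.85). The survival gene Mcl1 was higher by 0.80.

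Lysosome and autophagy genes gave 9 of 61 higher (14.8%) and 10 lower (16.4%; 6 with the offset) by at least 2-fold. Manba, which encodes beta-mannosidase, read 11.32, 11.26 and 11.25 against 5.46, 5.61 and 5.93 (5.61 ± 0.102 SE), Ctsc (cathepsin C) differed by 3.05 and Gusb (beta-glucuronidase) by 1.92. Ctso (-2.62), another cathepsin gene, Ulk2 (-2.24), a kinase that starts autophagy, and Arsa (-1.91), a sulfatase, were lower.

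Antigen presentation genes had the highest share of members at least 2-fold lower among the 40 lists, which were chosen with earlier results known. Of 28 measured 17 were lower, 5 higher and 6 not called, and 11 (39.3%) were at least 2-fold lower against 3 (10.7%) higher, with a median of -0.53. B2m, the light chain of class I molecules, read 6.67, 6.76 and 6.70 in ESCs and 9.54, 9.35 and 9.64 in vehicle EpiSCs (-2.80 ± 0.080 SE). The heavy chain gene H2-K1 differed by -2.21, the trimming peptidase gene Erap1 by -2.77 and Psmb8, of the immunoproteasome, by -2.07. Psmb8 lies in a run of 3 lower neighbours with Psmb9 and Tap1 on chromosome 17 (-2.07 to -1.22). The lipid-presenting Cd1d1 (3.15), H2-Eb1 (2.68) and H2-Bl (2.21) were higher. Class I heavy chain genes are close copies of each other, and the probe set of H2-K1 is of a kind (_x_at) that can detect several of them.

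Interferon response and antiviral sensing genes were split evenly, 11 of 59 in each direction (18.6%), against backgrounds of 6.36% higher and 9.73% lower, with a median of 0.26. With an offset of 32 the counts were 7 higher and 5 lower, and with the filter 5 were lower. Besides Trim25, the apoptosis gene Xaf1 read 9.13, 8.94 and 9.06 against 3.18, 3.08 and 3.38 (5.83), the antiviral membrane protein gene Ifitm3 differed by 4.36 and Oas1a, a sensor of double-stranded RNA, by 3.42. On the other side Gbp2, a GTPase induced by interferon gamma, read 2.80, 2.84 and 3.44 against 9.32, 8.98 and 9.58 (-6.27, from an _x_at probe set). Usp18 (-2.89), Ifit2 (-2.26) and Igtp (-1.90) were lower as well. Members known as targets of the same cytokines thus lay on both sides.

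Imprinted genes, expressed from 1 parental allele, were also split evenly, with 12 of 53 in each direction (22.6%) against the same backgrounds, and a median of -0.01. On chromosome 12 the maternally expressed RNA genes Meg3, Rian and Mirg formed a run of higher neighbours (1.82 to 3.38), and Meg3 read 9.94, 10.17 and 10.07 against 6.60, 6.84 and 6.60. Igf2, a paternally expressed growth factor, read 6.06, 6.21 and 6.06 against 9.66, 9.26 and 9.92 (-3.50 ± 0.136 SE). Grb10, an adaptor that damps insulin signals, differed by -3.16 and Gnas, of the stimulatory G protein, by -2.75. Peg12 was higher in ESCs (mean 5.64 against 2.64), as was Cdkn1c, which is maternally expressed (difference 2.70). Signals were not resolved by allele, so these values say nothing of imprinting itself.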

How the data were processed

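RNA of 9 cultures was measured on Affymetrix Mouse Genome 430 2.0 arrays. The authors deposited log2 values for 45101 probe sets, made with RMA and limma per the submitters' processing notes, which give no versions. RMA subtracts background, equalises the distributions of the arrays and combines the probes of a set, so a change in total RNA per cell is not seen, and array medians lay between 5.22 and 5.26. Arrays have no read depth; precision is limited by their number (3 in each group). No detection calls were used here.

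Gene symbols came from the platform annotation: of the probe sets, 34945 had 1 symbol, 932 several, 9160 none and 64 were controls. A gene was represented by its probe set of highest mean signal over the 9 arrays, which gave 18193 genes, of which 18032 were found in the RefSeq table of GRCm38.p6, the source of chromosomes and promoters. limma 3.58.1 (R 4.3.3) fitted the means of the 3 groups with lmFit and moderated the variances with eBayes (degrees of freedom 6 before and 9.58 after), with two-sided p-values adjusted by Benjamini-Hochberg over all genes. A gene is called where its adjusted p is beneath 0.05. A difference is ESC minus vehicle EpiSC in log2 units. Other probe sets of a gene can differ less or not be called, which the text states for some genes only. The median standard error was 0.082.

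The members and the gene lists were chosen with earlier results of these data known. Named are the 30 largest autosomal differences in each direction (called, higher group mean at least 5.24, no overlap of groups, no _x_at probe set, no Riken or Gm model), up to 4 called members of each list in each direction, and runs of at least 3 neighbours; exceptions are stated or serve a role. Of these, the text prints a selection. Simulated data held 18193 genes, of which 50 were changed at each size. There 18%, 66%, 88% and 100% of genes changed by 0.3, 0.5, 1 and 2 were called, and 1.45% of calls were of unchanged genes. Far more genes were called in the real comparison, so these shares need not hold there. Alternatives tried were other probe set rules, an offset of 32, a filter on low signal (genes above the median), other normalizations and variance models, the 6 arrays alone, leaving out each array, a replicate block, a stricter adjusted p (0.01) and treat, which tests against a minimum difference of 1.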

Additional observations from a re-analysis of the deposited data

How the results depend on the processing

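Counts of called genes kept within 1.5 times of their main values (6614 higher, 4946 lower, 1107 and 1693 by at least 2-fold) under the alternatives, with these exceptions. With the filter on low signal 4062 genes were higher. The treat test against a minimum difference of 1 called 800 higher and 1191 lower. An offset of 32 on the linear scale gave 692 genes at least 2-fold higher and 1120 at least 2-fold lower. Leaving out each array in turn gave 5921 to 6208 higher, 4644 to 4803 lower, 1097 to 1116 at least 2-fold higher and 1668 to 1724 at least 2-fold lower. Same-numbered samples of both groups did not deviate together (correlations 0.024, -0.002 and -0.005), which does not exclude that they were handled together. With a replicate block 6594 genes were higher and 4877 lower. Median centring moved the median difference of all genes from 0.11 to 0.24, and cyclic loess moved it to 0.04. With the filter on low signal it was -0.02.

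Single genes and lists were recomputed under all alternatives but treat and the stricter adjusted p. Of 244 genes named in the text, 241 kept their direction and their call wherever they were measured. Sfrp2 lost its call under 3 alternatives (adjusted p 0.0511 to 0.0957). Without _x_at and _s_at probe sets Igfbp5 was reversed (0.61) and Acta2 was not called (-0.07). Of 1280 list counts under these alternatives 67 moved by over 1.5 times, 25 of them with the offset of 32 and 16 with the filter on low signal, which both act on weak signals. Weak signals near the array floor limit the size of differences, and 3 arrays per group limit their precision.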
